A study of Mus musculus with 24 samples.

Results

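Pituitary glands of 6 female mice lacking Cga were compared with those of 6 wild-type females, across all genes that the arrays detected. The members are the 12 arrays labelled female, 6 mutant and 6 wild-type, of the 24 arrays of the series. The other 12 arrays hold 6 mutant and 6 wild-type males and enter only the shared estimate of spread and the test of whether the change differed between the sexes. All mice were 8 weeks old and of the strain Mixed C57Bl6j 129S2SvPas, the wild types were littermates of the mutants, and the whole pituitary was the tissue. The labels call the mutants Cga-deficient and give no further detail of the allele, and no label ties an array to a litter. RNA was hybridised to Illumina expression arrays, 1 array per sample, and a level below is a normalized log2 intensity.

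Cga encodes the alpha subunit that pairs with separate beta subunits to form thyrotropin, luteinizing hormone and follicle-stimulating hormone. Without it, the thyroid and the gonads lose their pituitary drive, and thyroid hormone and sex steroids no longer restrain or stimulate their target cells in the pituitary as they do in a normal animal. The gland holds several hormone-producing cell types, among them thyrotropes, gonadotropes, lactotropes, somatotropes and corticotropes. In such whole tissue, fewer cells of a type and less RNA per cell cannot be told apart.

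The female arrays were of like quality, with a median of 43 to 44 beads per probe and a correlation of at least 0.9876 of each array with the rest of its group. Probes above the negative controls made up 43.9% to 46.4% of all probes on wild-type female arrays and 47.3% to 50.8% on mutant female arrays, and the part of this difference in the results was not tested. The defining pituitary hormone genes Gh, Prl, Pomc and Tshb lay between 13.41 and 15.10 on all 12 female arrays. The top signal of an array was 15.20, and differences of genes near it may be understated.

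Of 12027 genes tested, 5808 (48.3%) were called at an adjusted p under 0.05, 2738 (22.8%) higher and 3070 (25.5%) lower in mutants. A change of at least 2-fold was called for 965 genes (8.02%), 580 higher (4.82%) and 385 lower (3.20%). Larger changes were mostly rises: at least 4-fold for 137 higher and 88 lower genes, at least 8-fold for 47 and 23, and at least 16-fold for 16 and 10. The median difference of all genes was -0.03 log2, and the arrays of both groups did not overlap for 2834 genes (23.6%).

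**Figure D1:**
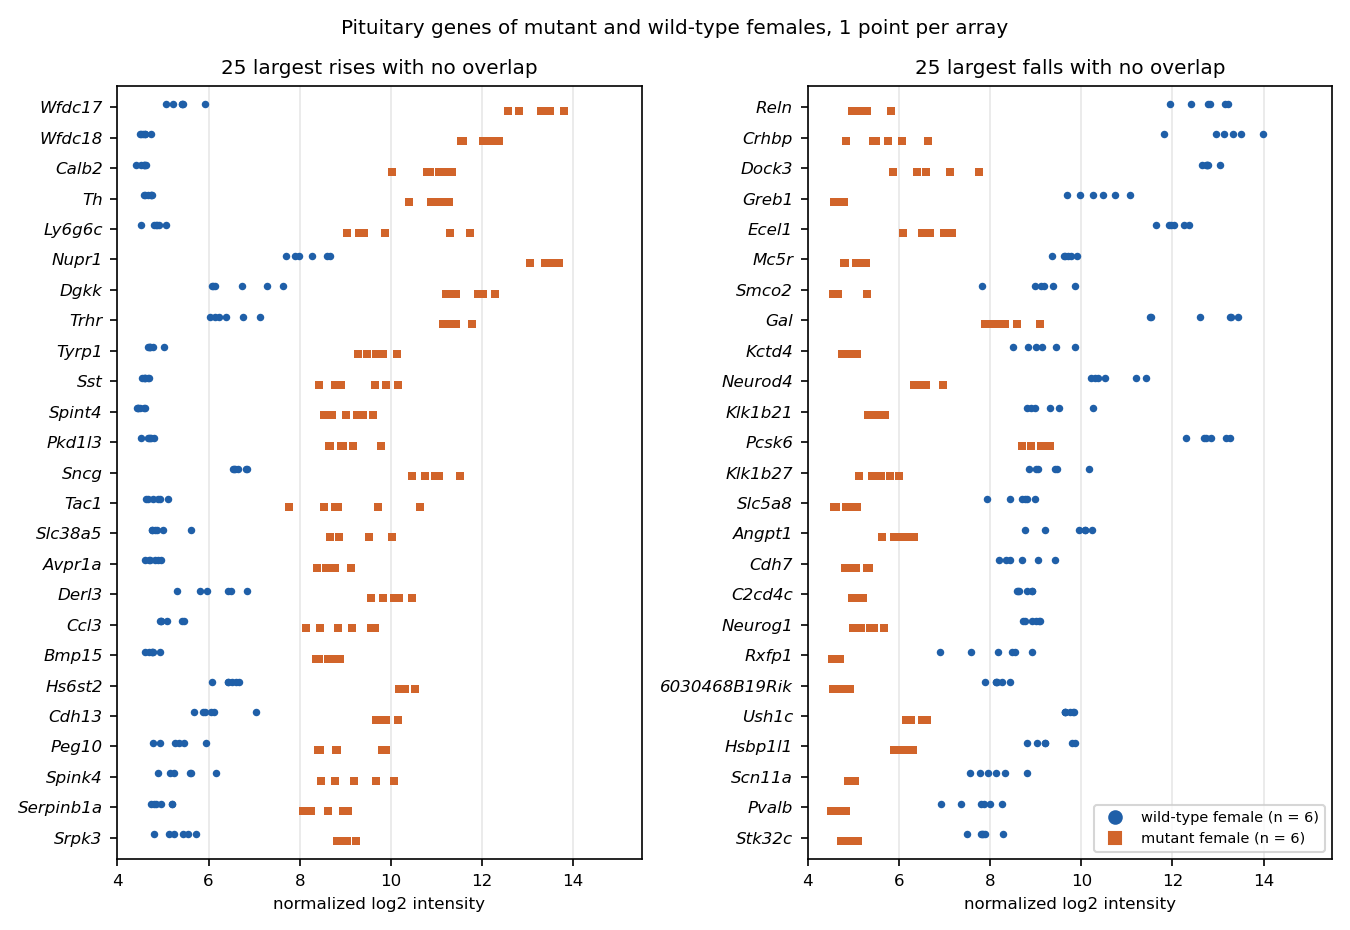
Normalized log2 intensity (x axis) of the 25 largest called rises (left) and the 25 largest called falls (right) whose groups did not overlap, with 1 circle per wild-type and 1 square per mutant female array. The rises start in many cases from the floor near 4.5 to 5, such as Th at 4.58 to 4.76, and the falls of Reln and Crhbp run from above 11.8 to below 6.7.

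The alpha subunit gene was lower on every mutant array. Cga measured 14.68, 14.75 and 14.91 (lowest, median and highest) in wild-type females and 12.32, 12.66 and 13.02 in mutant females. The groups did not overlap, the fall was 4.28-fold (log2 difference -2.10 ± 0.10 SE, adjusted p = 4.0e-15), and the probe stayed detected on all 6 mutant arrays. The sources used here do not say whether the probe lies in a deleted stretch of the gene.

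Of the beta subunits, those of thyrotropin and follicle-stimulating hormone rose and that of luteinizing hormone fell. Tshb ran from 13.41 to 14.23 in wild types, with a median of 13.77, and from 14.79 to 15 in mutants, with a median of 14.89. Wild-type females 1 and 6 stood highest in their group, and no wild-type array reached the lowest mutant one (2.12-fold higher, adjusted p = 3.2e-09; exact two-sided permutation test, p = 0.0022, the smallest that 6 against 6 arrays can give). Lhb measured 12.70 to 13.03 in wild types and 11.79 to 12.57 in mutants, again without overlap (1.48-fold lower, adjusted p = 0.00054).

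Fshb, the follicle-stimulating hormone beta subunit, was the hormone gene with the widest scatter. The 6 wild-type females measured 10.31, 9.61, 7.77, 8.27, 9.04 and 7.09, and the 6 mutants 11.10, 10.55, 10.45, 11.08, 10.91 and 10.67. The groups did not overlap, but wild-type female 1 lay just below the lowest mutant and wild-type female 6 far below it. The means were 8.68 ± 1.20 and 10.79 ± 0.28 (SD, n = 6), a 4.32-fold rise (adjusted p = 1.3e-05; exact permutation test, p = 0.0022).

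Thyrotrope markers rose for 6 of the 8 tested, against 22.8% of all genes, with a median difference of 1.34 log2, and none fell (limma; also 6 higher and 0 lower at an unadjusted p under 0.05). Trhr, the receptor for thyrotropin-releasing hormone, had the largest change in the list. It measured 6.02 to 7.13 in wild-type females, with a median of 6.31, and 11.15 to 11.77 in mutants, with a median of 11.38. The highest wild-type array, that of female 6, lay far below the lowest mutant (31.0-fold higher, adjusted p = 6.0e-18).

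Dio2, the deiodinase that converts thyroxine to its active form, rose from 7.48 ± 0.50 to 10.42 ± 0.14 (7.64-fold, adjusted p = 3.1e-13). The transcription factors Gata2, which drives thyrotrope and gonadotrope differentiation, and Isl1, a LIM-homeodomain factor, rose 4.62-fold and 3.02-fold. Gata2 spanned 9.32 to 10.57 in wild types and 11.56 to 12.76 in mutants, and Isl1 9.42 to 9.93 and 10.96 to 11.68, so neither overlapped. Rxrg, a retinoid X receptor, rose 1.91-fold (adjusted p = 7.8e-08). Thrb, the thyroid hormone receptor beta, and Nmb, the peptide neuromedin B, were not called, at -0.33 ± 0.20 and 0.12 ± 0.14 log2.

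Gonadotrope markers went both ways, with 3 of 7 higher and 2 lower, against 22.8% and 25.5% of all genes. Gnrhr, the receptor for gonadotropin-releasing hormone, measured 9.49 to 10.80 in wild types and 7.82 to 9.12 in mutants (3.13-fold lower, adjusted p = 1.8e-05). The 2 nuclear factors that rose beside Fshb were dim: Foxl2, a forkhead factor (at least 1.53-fold, adjusted p = 0.0032), and Nr5a1, steroidogenic factor 1 (at least 1.36-fold, adjusted p = 0.0060). "At least" here sets the brighter group against the lowest signal that counted as detected on each array, wherever the dimmer group was not detected on all 6. Of 9 activin, inhibin and follistatin genes tested, 33.3% were called, against 48.3% of all genes. Acvr2a was called higher and Fstl3 and Smad3 lower. Fstl3, a follistatin-like antagonist of activin, fell 1.97-fold (adjusted p = 2.9e-05) and Smad3, a transducer of activin signals, 1.68-fold (adjusted p = 3.6e-05). The rise of Acvr2a was lost under 75th percentile scaling.

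Many of the largest rises came from genes with little or no signal in wild-type females. Wfdc17 and Wfdc18, secreted proteins of the whey acidic protein family, stood first. Wfdc17 measured 5.06, 5.42 and 5.92 (lowest, median and highest) in wild types, where 3 of 6 arrays detected it, and 12.56, 13.37 and 13.79 in mutants. Wfdc18 was detected on none of the wild-type arrays (4.5 to 4.74) and measured 11.54 to 12.38 in mutants, a rise of at least 95.5-fold. Other protease inhibitor genes stood among the 25 largest rises: Spint4, with a Kunitz domain (at least 12.9-fold), Spink4, with a Kazal domain (at least 11.8-fold), and the serpin Serpinb1a (at least 9.63-fold).

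Enzymes and a calcium-binding protein were among the rises from below detection. Th, tyrosine hydroxylase, the rate-limiting enzyme of catecholamine synthesis, lay between 4.58 and 4.76 on the wild-type arrays, which never detected it, and between 10.40 and 11.27 on the mutant arrays. Tyrp1, an enzyme of melanin synthesis, went from 4.68 to 5.03 in wild types to 9.28 to 10.13 in mutants (at least 19.7-fold, adjusted p = 4.8e-20). Calb2, the calcium-binding protein calretinin, likewise had no detected wild-type array (4.41 to 4.62) and reached 10.03 to 11.35 in mutants.

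The other large rises included a receptor, kinases and a cadherin. Avpr1a, a vasopressin receptor, rose at least 9.92-fold, from an undetected 4.61 to 4.95 to between 8.39 and 9.12. Dgkk, a diacylglycerol kinase on the X chromosome, measured 6.07 to 7.64 in wild types, with animals 2 and 6 highest, and 11.22 to 12.28 in mutants (32.4-fold). Hs6st2, a heparan sulfate sulfotransferase (14.2-fold), Cdh13, T-cadherin (13.3-fold), and Srpk3, a kinase of splicing factors (at least 11.0-fold), were higher as well. Pkd1l3, a polycystin-like protein, and Slc38a5, a glutamine transporter, rose at least 12.3-fold and at least 12.7-fold.

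Some rises were uneven among the mutants. Ly6g6c, a member of the Ly6 family of surface proteins, measured 9.88, 9.42, 11.73, 9.29, 11.29 and 9.04 on mutant arrays 1 to 6. Mutants 3 and 5 were thus the highest, and they were also the highest for Tac1, the precursor of substance P, at 10.64 and 9.71 against 7.77 to 8.84 in the other mutants. Nupr1, a stress-induced nuclear protein, was even by comparison, at 13.06 to 13.68 (37.5-fold higher). Sncg, gamma-synuclein (19.7-fold), Ccl3, a chemokine (at least 11.7-fold), Peg10, a paternally expressed imprinted gene (at least 11.5-fold), and Bmp15, a growth factor best known from oocytes (at least 9.11-fold), completed the group together with Trhr, Sst and Derl3, described with their gene groups.

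The largest falls were those of Reln and Crhbp. Reln, the secreted glycoprotein reelin, measured 12.40, 13.16, 12.82, 12.77, 13.22 and 11.95 on the wild-type arrays and 4.97, 5.09, 5.83, 5.30, 5.23 and 5.09 on the mutant arrays. Crhbp, which binds and sequesters corticotropin-releasing hormone, ran from 11.83 to 14 in wild types and from 4.85 to 6.64 in mutants. Reln was detected on 2 and Crhbp on 5 of the 6 mutant arrays, and the falls were at least 170-fold and at least 164-fold.

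Dock3, a guanine nucleotide exchange factor, was even in the wild types and less so in the mutants. It lay between 12.66 and 13.04 in the former and between 5.87 and 7.76 in the latter (68.6-fold lower; adjusted p = 8.4e-13). Ecel1, a neuronal metallopeptidase related to endothelin-converting enzyme, fell 38.7-fold, and Pcsk6, a proprotein convertase, 13.7-fold from 12.30 to 13.25 to between 8.71 and 9.31. Mc5r, a melanocortin receptor, measured 9.36 to 9.91 in wild types and 4.79 to 5.27 in mutants, detected on 1 of 6. The tissue kallikrein genes Klk1b21 and Klk1b27 fell 13.9-fold and at least 13.4-fold, but members of that cluster are near-identical and their probes may not tell them apart.

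The transcription factors Neurod4 and Neurog1 fell as well. Neurod4, a neurogenic factor of the somatotrope lineage, fell from 10.67 ± 0.51 to 6.59 ± 0.21 (16.9-fold, adjusted p = 1.3e-15), and Neurog1, a related neurogenic factor, at least 12-fold from a tight 8.73 to 9.09. Slc5a8, a monocarboxylate transporter (at least 10.6-fold), Scn11a, a sodium channel (at least 7.46-fold), Cdh7, a cadherin (at least 11.1-fold), and Ush1c, the scaffold protein harmonin (10.1-fold), were lower as well. Pvalb, the calcium-binding protein parvalbumin, fell at least 5.70-fold, while Calb2, another calcium-binding protein, rose. Besides Greb1, Gal, Angpt1 and Rxfp1, described with their gene groups, the remaining falls among the 25 were at least 14.3-fold for Smco2, at least 15.3-fold for Kctd4, at least 11.6-fold for C2cd4c, at least 7.84-fold for 6030468B19Rik, 9.19-fold for Hsbp1l1 and at least 6.33-fold for the kinase gene Stk32c.

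Lactotrope markers were lower for 5 of the 6 tested, against 25.5% of all genes, with a median of -1.56 log2. Prl itself, prolactin, measured 14.75 to 14.97 in wild types and 14.66, 13.60, 14.79, 14.44, 14.84 and 14.07 in mutants. Mutants 2 and 6 were clearly lower, mutants 3 and 5 overlapped the wild types, and the fall was 1.42-fold (adjusted p = 0.0067; exact permutation test, p = 0.0065). Agtr1a, an angiotensin II receptor, fell 6.13-fold (8.38 to 9.39 against 5.69 to 6.90) and Angpt1, the vessel-stabilising ligand of the Tek receptor, 13.1-fold (8.76 to 10.24 against 5.63 to 6.33). Tgfbr2, a receptor for transforming growth factor beta, was the 1 member that rose (1.28-fold, adjusted p = 0.0021), and its call was lost when the probes of a gene were averaged (adjusted p = 0.21).

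Estrogen-responsive genes were called lower for 5 of 13 and higher for 2, and the 7 called are a share close to the 48.3% of all genes. Esr1, estrogen receptor alpha, which is also a lactotrope marker here, fell 6.32-fold (9.12 to 9.58 in wild types, 6.31 to 7.36 in mutants). Greb1, an estrogen-induced coregulator, was undetected on every mutant array (4.57 to 4.80) and at 9.68 to 11.07 in wild types, at least 36-fold lower. Pgr, the progesterone receptor, was at least 2.38-fold lower, with wild-type females 2 and 3 highest at 6.91 and 7.04. Stc1, the secreted glycoprotein stanniocalcin, and Igfbp3, an insulin-like growth factor binding protein, went the other way, 4.98-fold and 2.11-fold higher. The list's median of -0.04 log2 was close to that of all genes.

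Somatotrope markers were called lower for 6 of 9, against 25.5% of all genes. Ghrhr, through which growth hormone-releasing hormone acts, fell from 10.31 to 11.45 to between 9.46 and 10.16 (2.20-fold, adjusted p = 3.3e-06). Sstr5, a somatostatin receptor, fell 2.14-fold, and Foxo1, a forkhead factor, 1.74-fold. Gh, growth hormone, was 14.97 to 15.10 in wild types and 14.75 to 14.98 in mutants, a 1.13-fold fall (adjusted p = 0.026). That call was lost when only the female arrays were fitted (adjusted p = 0.085) and without the array of wild-type female 1 (-0.16) or of mutants 2 or 6 (-0.15 each). The fall was larger under 75th percentile scaling (-0.45 log2, limma, adjusted p = 0.00043). Dlk1, an imprinted transmembrane protein, was called 1.84-fold higher at the very top of the range (15.06 to 15.20 in mutants), and its sign turned to -0.36 under 75th percentile scaling and to -0.11 when only the female arrays were normalized.

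Against 25.5% lower and 22.8% higher among all genes, thyroid hormone-responsive genes had 4 of 9 lower and 2 higher. Of the latter, Thra, thyroid hormone receptor alpha, lost its call under 75th percentile scaling (0.18 log2, adjusted p = 0.25), and averaging a gene's probes left 2 lower. Hr, the thyroid hormone-induced corepressor hairless, fell 3.10-fold without overlap (9.49 to 10.42 against 8.04 to 8.57), and Klf9, a thyroid hormone-induced zinc finger factor, 2.12-fold. Of 5 corticotrope and melanotrope markers tested, 2 were called, against 48.3% of all genes. Tbx19, the T-box factor of corticotropes, was 1.52-fold lower (adjusted p = 0.013) and Oacyl, an acyltransferase-like gene, was called higher. Oacyl lost its call without the array of wild-type female 3 (0.79) or of mutants 4 (0.65) or 6 (0.84). Pomc, the precursor of corticotropin, measured 14.60 to 15.06 in wild types and 14.80 to 15.03 in mutants (0.06 ± 0.08 log2, adjusted p = 0.56).

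Genes of the unfolded protein response, which expands the folding and degradation capacity of the endoplasmic reticulum, moved together. Of 22 tested, 18 were called higher and 1 lower, against 22.8% and 25.5% of all genes. The groups were separated by 17 of them, against 23.6% of all genes. The median difference was 1.39 log2 against -0.03 for all genes. Several of these genes are known to carry an endoplasmic reticulum stress response element, a bipartite motif, in their promoters. The motif, CCAAT followed by any 9 bases and CCACG, was chosen after the values were seen. It was searched on both strands of a window from 250 bases before to 50 bases after the start. Stretches of 80 bases around it are shown from RefSeq promoters (build GRCm38.p6) for 5 of the list's genes that rose, read in the direction of each gene, with the motif in capitals.
Hspa5: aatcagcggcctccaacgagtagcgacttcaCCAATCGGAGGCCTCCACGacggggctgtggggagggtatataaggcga
Hsp90b1: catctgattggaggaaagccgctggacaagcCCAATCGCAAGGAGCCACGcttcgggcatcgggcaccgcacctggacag
Pdia6: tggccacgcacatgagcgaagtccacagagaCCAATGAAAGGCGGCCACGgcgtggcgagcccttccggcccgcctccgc
Creld2: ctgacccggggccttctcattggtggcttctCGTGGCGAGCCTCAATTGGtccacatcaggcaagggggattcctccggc
Derl3: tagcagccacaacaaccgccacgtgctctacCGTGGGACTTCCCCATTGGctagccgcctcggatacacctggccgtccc

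These stretches lie at chr2:34771994-34772073 on the plus strand (Hspa5), chr10:86705608-86705687 on the minus strand (Hsp90b1), chr12:17266460-17266539 on the plus strand (Pdia6), chr15:88819489-88819568 on the plus strand (Creld2) and chr10:75893211-75893290 on the plus strand (Derl3). In Creld2 and Derl3 the motif sits on the opposite strand, so its reverse complement is in capitals, and Hsp90b1 holds 2 matches, of which the first is shown. Among the 9701 tested genes with a promoter window, 17 held the motif (0.175%). The list had it in 8 of 19 genes with a window, 7 of them called higher. Of genes called at least 2-fold higher, 9 of 451 held it. All of these but Calr4 and Tdrd9 belong to the list, so this count is not separate from the list's. Of genes called at least 2-fold lower, 0 of 294 held it, where the share of all genes was 0.175% (no test was run). Of the 17 genes, 11 were called higher and 2 lower, against 22.8% and 25.5% of all genes. The 11 include the 7 of the list already counted, and the rest are Alg12, Calr4, Syvn1 and Tdrd9. The lower ones were Acacb, an acetyl-CoA carboxylase (-0.83 log2), and Adcy3, an adenylyl cyclase (-0.37 log2), both outside the list. A match describes letters in the window and not a bound site.

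The genes with these promoters differed in level and in the size of their rise. Hspa5, the chaperone BiP, measured 6.65, 6.90 and 7.28 (lowest, median and highest) in wild types and 8.42, 9.31 and 10.16 in mutants (5.14-fold, adjusted p = 1.4e-09). Hsp90b1, the chaperone GRP94, was bright throughout, at 12.73 to 13.20 and 14.47 to 14.92 (3.59-fold). Pdia6, a disulfide isomerase, rose 5.26-fold. Each of them separated the groups. Creld2, an endoplasmic reticulum stress-inducible protein, ran from 10.13 to 10.74 and from 13.46 to 14.15 (10.7-fold), and Derl3, a component of the degradation channel, from 5.30 to 6.85 and from 9.57 to 10.46 (at least 14.7-fold).

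Other members without a match also rose. Sdf2l1, a chaperone cofactor, was 6.54-fold higher (10.30 to 10.99 against 13.05 to 13.53). Pdia4, a disulfide isomerase, was 4.86-fold higher, and Sel1l, an adaptor of the ubiquitin ligase that clears misfolded proteins, 4.04-fold. Xbp1, the transcription factor whose spliced form drives many of these genes, was the 1 member that fell, from 13.30 ± 0.21 to 12.89 ± 0.18 with overlapping arrays (1.33-fold, adjusted p = 0.0017). The sources used here do not say whether the probe tells its spliced form from the unspliced one. The stress-response factors Atf4 and Atf6 were not called (-0.07 and 0.10 log2). Ero1b, an oxidase of disulfide formation and the list's other gene with a match, was not called at 0.47 ± 0.20 log2 (adjusted p = 0.053).

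Secretory granule genes were called higher for 12 of 18, against 22.8% of all genes, and lower for 1. Vgf, a granule peptide precursor, measured 6.97, 8.89, 7.37, 6.98, 8.01 and 6.94 in wild types and 9.62 to 11.13 in mutants. Wild-type females 2 and 5 were highest but stayed below every mutant (6.99-fold higher, adjusted p = 1.1e-08). Chga, the granule protein chromogranin A, rose 2.92-fold, the granule membrane protein Ptprn 3.39-fold and Syt1, the calcium sensor of release, 2.41-fold. Pcsk1n, an inhibitor of a prohormone convertase, fell 1.31-fold (adjusted p = 0.0064). For Syt4, a related synaptotagmin called higher at 0.30 log2, a second probe fell by 0.74 log2, so its direction is not settled.

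Neuropeptide genes split evenly, with 4 of 10 higher and 4 lower, against 22.8% and 25.5% of all genes. Sst, somatostatin, was undetected in wild types (4.54 to 4.69) and measured 10.15, 8.91, 8.41, 9.66, 8.79 and 9.89 in mutants, at least 15-fold higher. Cartpt, the precursor of the peptide CART, rose 11.7-fold without overlap, Tac1 at least 12.5-fold and Pdyn, prodynorphin, 2.27-fold. Gal, galanin, went down, from 11.51 to 13.44 in wild types to between 7.88 and 9.10 in mutants (18.9-fold), and Vip, vasoactive intestinal peptide, measured 7.15 to 9.81 and 4.67 to 7.17 (at least 4.79-fold lower). Vip overlapped at its edge, where wild-type female 5 and mutant female 1 met.

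The cyclic AMP response element TGACGTCA, known from the somatostatin promoter, was also chosen after the values were seen. It was searched on both strands of the same window. It is shown in capitals for Sst and Th, which went from undetected to clearly detected, from the same RefSeq build and in the direction of each gene.
Sst: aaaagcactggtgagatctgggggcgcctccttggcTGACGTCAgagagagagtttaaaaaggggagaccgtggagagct
Th: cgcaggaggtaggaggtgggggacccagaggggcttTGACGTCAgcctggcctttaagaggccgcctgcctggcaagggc

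They lie at chr16:23890849-23890928 (Sst) and chr7:142899997-142900076 (Th), both on the minus strand. The element was in the window of 3.46% of tested genes, in 2% of those called at least 2-fold higher and in 2.72% of those called at least 2-fold lower (no test was run). Of the 9 neuropeptide genes with a window, Sst and Cartpt held it.

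Markers of other cell types moved in part. All 10 macrophage and leukocyte markers tested were called higher, against 22.8% of all genes, with a median of 0.85 log2. The groups were separated by 9 of them, against 23.6% of all genes. Under 75th percentile scaling Cd3e, a T cell receptor subunit, lost its call (0.22 log2, adjusted p = 0.22). Their summed normalized intensity ran from 5518 to 7582 in wild-type females and from 8777 to 13504 in mutants. C1qc, a complement component made by macrophages, measured 8.48 to 9.09 and 9.46 to 10.05 (1.92-fold higher), Csf1r, the macrophage growth factor receptor, rose 1.91-fold and H2-Aa, a class II antigen presentation gene, 2.18-fold. Ptprc, Cd68, Cd79a and Ms4a1 of that list were not among the genes tested. The part of these cells in other changes, such as that of Ccl3, was not tested.

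Endothelial markers had 4 of 11 higher and 2 lower, and the 54.5% called were close to the 48.3% of all genes. Changes were small: Pecam1, an endothelial adhesion protein, rose 1.42-fold and Plvap, a protein of fenestrated endothelium, fell 1.24-fold. Among 12 angiogenic factors, 6 were higher and 3 lower, against 22.8% and 25.5% of all genes. Angpt2, the antagonist of Angpt1, rose 6.18-fold (7.97 to 8.71 against 10.50 to 11.28), opposite to Angpt1, and Pdgfa, a platelet-derived growth factor, 2.52-fold. Fibroblast and pericyte markers had 5 of 11 higher and 3 lower, against 22.8% and 25.5% of all genes. The collagens were divided: Col3a1 was at least 2.68-fold and Col1a1 2.14-fold higher, while Col1a2 fell 1.55-fold. The count of higher members fell to 3 without wild-type female 3 and when probes were averaged. The direction of Pdgfra, 1 of the 5, is not settled, since a second probe was lower (-0.46 log2). Lum, the matrix proteoglycan lumican, fell 1.94-fold.

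Among 8 markers of folliculostellate and stem cells, 37.5% were called, against 48.3% of all genes. Of these, 1 was called higher and 2 lower, including Aldh1a2, a retinoic acid-producing enzyme (1.55-fold, adjusted p = 6.1e-05). The higher one, Lgals3 (galectin 3), was lost in the fit of the female arrays alone (adjusted p = 0.051) and without wild-type female 2 (0.27) or 4 (0.32) or mutant female 5 (0.33). Posterior lobe markers had 2 of 7 lower, near the 25.5% of all genes. Oxt, oxytocin, measured 8.61 to 9.25 in wild types and 6.00 to 7.15 in mutants (5.50-fold lower, adjusted p = 2.0e-10), while Avp, vasopressin, was near the floor in both groups (-0.34 ± 0.24 log2, adjusted p = 0.25). Limma called 0 of 3 red blood cell markers, and 0 at an unadjusted p under 0.05, with summed intensities from 16399 to 57279 in wild types and from 15197 to 67175 in mutants.

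**Figure D2:**
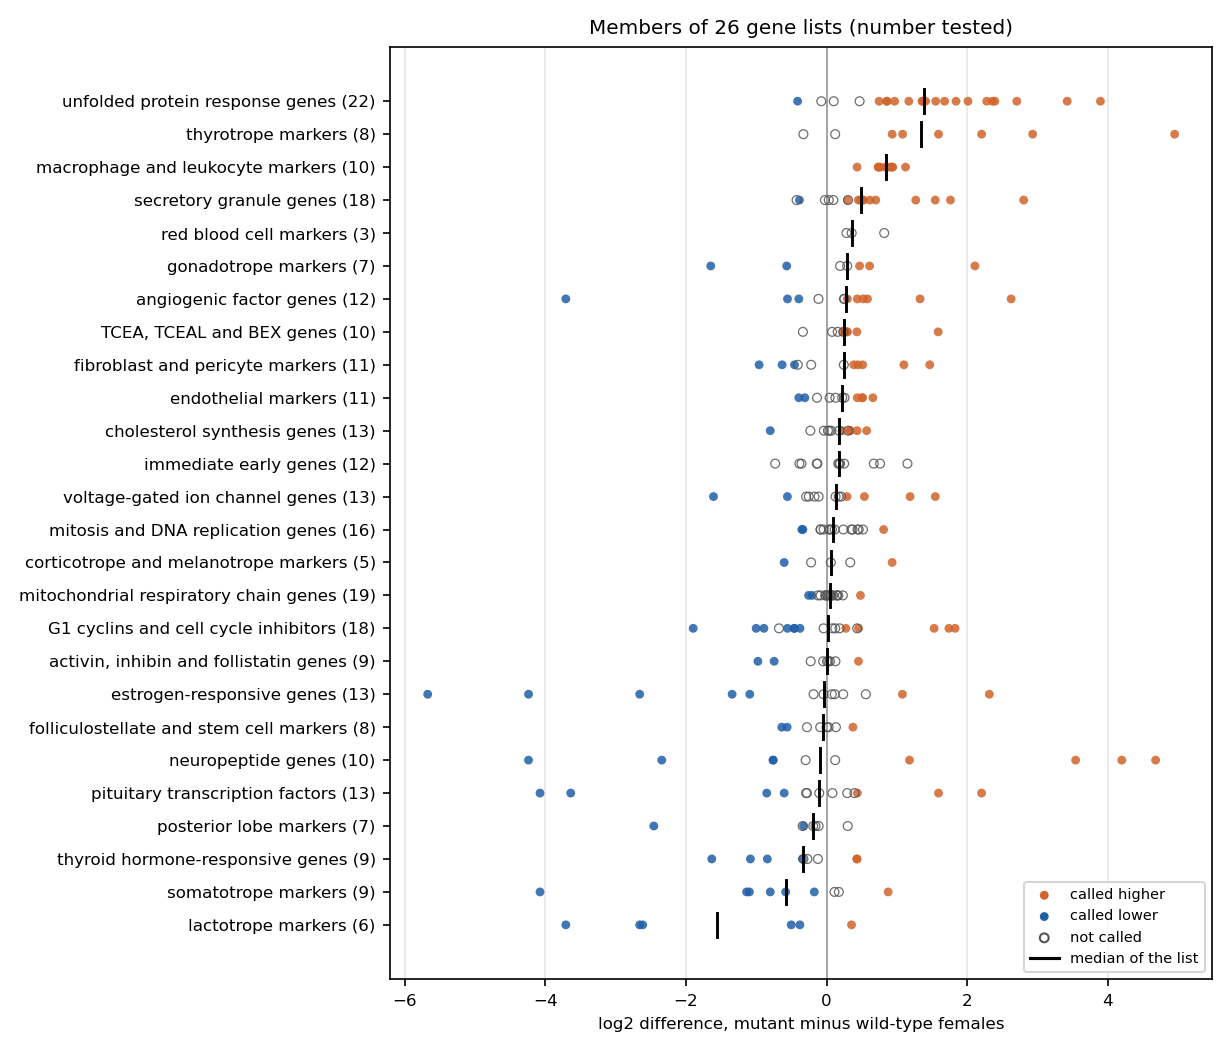
Log2 difference, mutant minus wild-type females (x axis), of each tested member of the 26 gene lists, with the number tested in brackets, filled points for called genes, open points for the others and a bar at the list's median. The unfolded protein response and thyrotrope lists have medians of 1.39 and 1.34, the macrophage list lies wholly above 0 and the lactotrope median is -1.56.

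Of 16 genes of mitosis and DNA replication, 18.8% were called, against 48.3% of all genes. Mcm6, a helicase subunit, was called higher (1.76-fold, adjusted p = 0.011) and Mcm5 and Mcm7, of the same helicase, lower. The call of Mcm5 was lost without wild-type female 3 (-0.23) or 4 (-0.29) or mutant female 1 (-0.31) or 5 (-0.32), and that of Mcm7 without any 1 of 9 of the 12 arrays (-0.36 to -0.31). Of the G1 genes, 12 of 18 cyclins and cell cycle inhibitors were called, 5 higher and 7 lower, against 22.8% and 25.5% of all genes. Ccne1, cyclin E1, undetected in wild types, rose at least 2.92-fold, and E2f1, the G1 transcription factor, 3.34-fold (7.04 to 8.13 against 9.35 to 9.67). The inhibitors diverged: Cdkn1c rose 2.89-fold, Cdkn2c fell 2-fold and the growth arrest gene Gadd45g fell 3.73-fold. The difference between these lists was not tested.

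Tceal5, of the family related to transcription elongation factor A (the series title names a transcription elongation factor), measured 10.72, 10.79, 11.19, 10.72, 10.29 and 10.99 in wild types and 12.35, 12.48, 12.40, 12.40, 12.35 and 12.26 in mutants. The mutants were tightly grouped and all above the wild types (3.01-fold, adjusted p = 8.1e-12). Of 10 tested TCEA, TCEAL and BEX genes, 6 were called higher, against 22.8% of all genes. Limma called none lower, likewise 0 at an unadjusted p under 0.05. The others changed far less than Tceal5, such as Tceal3 at 1.35-fold and Bex2 at 1.20-fold. Tceal6, not called here, turned to -0.30 when the probes of a gene were averaged.

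The remaining lists were mixed. The share called was 53.8% for pituitary transcription factors, 46.2% for cholesterol synthesis and for ion channel genes and 15.8% for respiratory chain genes. Among all genes it was 48.3%. Pituitary transcription factors had 3 of 13 higher and 4 lower, with Lhx3, a LIM-homeodomain factor of early pituitary development, falling 1.80-fold and Hes1, a Notch target, rising 1.36-fold. Cholesterol synthesis genes had 5 of 13 higher, 3 without wild-type female 6, and Dhcr7, an enzyme late in the pathway, lower by 1.74-fold. Of 19 respiratory chain genes 3 were called, Ndufb5 higher (1.4-fold) and Ndufv1 and Atp5b lower by 1.19-fold and 1.16-fold. The call of Ndufv1 was lost without wild-type female 3 or 4 or mutant female 2 or 6 (-0.22 each), and that of Atp5b without any 1 of 9 of the 12 arrays (-0.22 to -0.18). Voltage-gated ion channel genes had 4 of 13 higher, such as Kcnma1, the large-conductance potassium channel (2.28-fold), and 2 lower (4 under 75th percentile scaling, under the authors' table and without wild-type female 2 or mutant female 4). The direction of Cacna1d, 1 of the 4, is not settled, since its other probes fell by 0.76 and 0.84 log2. Cacna1g, a T-type calcium channel, was 3.05-fold lower, with wild-type females 2 and 3 at 8.34 and 8.46 and the other 4 at 6.38 to 7.07.

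The scatter among the wild-type females was uneven over genes. The median SD over the 6 arrays was 0.19 log2 in wild-type females, against 0.20 in mutant females, 0.18 in wild-type males and 0.18 in mutant males, and 46.7% of genes had a larger SD in wild-type than in mutant females. The upper tail was wider: 438 genes (3.64%) had an SD of at least 0.5 in wild-type females, against 326 in mutant females, 230 in wild-type males and 225 in mutant males. By ratio the order was the other way: the SD was over 3 times larger in wild-type than in mutant females for 316 genes and over 3 times smaller for 384. The count fell to 156 under the authors' table, 237 with an offset of 50 and 281 among genes detected on all 12 female arrays. Of the 438 genes, 250 reached that SD in no other group, 50 reached it in all 4, and 227 were still called between the genotypes, 51.8% against 48.3% of all genes.

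**Figure D3:**
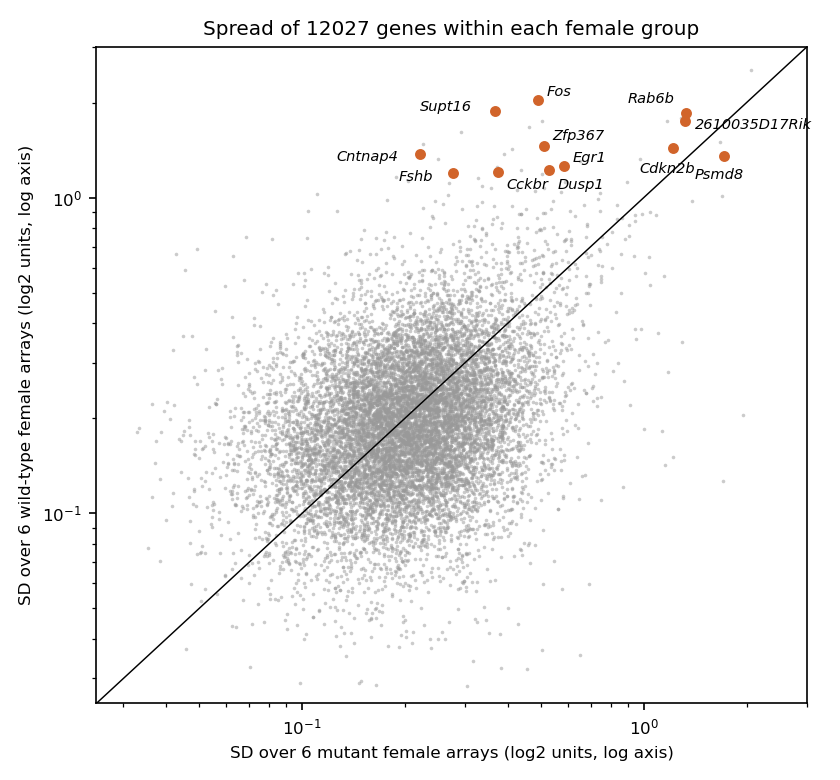
SD over 6 wild-type female arrays (y axis) against SD over 6 mutant female arrays (x axis) for 12027 genes, both in log2 units on log axes, with the line of equality. The 12 labelled genes are those of widest scatter among genes detected on all 6 wild-type female arrays. Psmd8 lies below the line, and Fos, Supt16, Cntnap4 and Fshb lie far above it.

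Immediate early genes, which answer within minutes to a stimulus or to handling of the tissue, included members with wide scatter. Of the 12 tested, 9 had an SD of at least 0.5 in wild-type females, against 3.64% of all genes, and 8 in mutant females. Fos, a transcription factor subunit, had the widest scatter of the 12 named genes. It measured 11.59, 11.50, 11.30, 7.60, 7.06 and 9.58 in wild types and 9.75 to 11.05 in mutants. Wild-type females 1 to 3 thus lay above every mutant and females 4 to 6 below every one (0.76 ± 0.63 log2, adjusted p = 0.34; exact permutation test, p = 0.40). Egr1, a zinc finger factor, ran from 10.22 to 13.70 and Dusp1, a phosphatase that switches off MAP kinases, from 9.80 to 12.75, each with female 5 lowest and females 1 to 3 highest. These numbers follow the order of the sample titles. The raw background of wild-type females was 83.4 to 89.0 on arrays 1 to 3 and 96.8 to 100.7 on arrays 4 to 6. Among mutants, Fos was lowest on arrays 5 and 6 (9.75 and 10.14) but not on array 4 (10.85). The part of array order in this scatter was not tested.

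Over the 12 immediate early genes tested, the median SD was 0.93 in wild-type and 0.54 in mutant females. Limma called none of them between the genotypes, and 0 at an unadjusted p under 0.05. Leaving out wild-type female 2 made Atf3, a stress-induced factor, called higher (1.07 log2), and leaving out wild-type female 5 made 2 members called lower, among them Egr2 (-0.98 log2). Jun, the partner of Fos, scattered little, at 6.89 to 7.36.

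Wide scatter took other shapes in other genes. Supt16, a subunit of the histone chaperone FACT, measured 10.35 to 10.69 on 5 wild-type arrays and 5.92 on that of female 5, while mutants ranged from 9.78 to 10.71. Psmd8, a proteasome subunit, fell into a high and a low set in both genotypes: females 1 and 5 at 10.09 and 9.95 and mutants 2 and 4 at 10.12 and 10.85, with the other 8 arrays between 7.06 and 7.58. Rab6b, a Golgi trafficking GTPase, the cell cycle inhibitor Cdkn2b and 2610035D17Rik were wide in mutants as well, with SDs of 1.33, 1.22 and 1.32. Zfp367, a zinc finger factor, was high on arrays 1, 2 and 6 (8.35 to 8.63) and low on arrays 3 to 5 (5.63 to 6.12).

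Among the 12 genes, Cckbr and Cntnap4 were lower in mutants and split the wild types the same way. Cckbr, the gastrin and cholecystokinin B receptor, measured 8.93, 6.39, 6.43, 8.2, 8.95 and 8.62 in wild types and 4.95 to 6.04 in mutants. Cntnap4, a neurexin-like adhesion protein, measured 9.09, 6.18, 5.88, 8.42, 8.09 and 8.81 in wild types and 5.45 to 5.96 in mutants. In both, females 2 and 3 sat near the mutants and the other 4 far above them. Cckbr still separated the groups (at least 5.67-fold lower, exact permutation test, p = 0.0022), while Cntnap4 overlapped through female 3 (4.19-fold lower, exact permutation test, p = 0.0065).

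Females 2 and 3 also stood together along the leading principal component of the wild-type females, which held 32.7% of their variance (38.0% for the leading component of the mutant females), with scores of -19.8 and -17.0 against 0.29 to 22.7 for the other 4. Some of the genes at its ends, chosen after their values were seen, set these females apart, while others there, such as Supt16 and Psmd8, did not. Abcb1b, a drug efflux pump, measured 6.65 and 6.63 in females 2 and 3 and 8.06 to 8.87 in the others. Kcnf1, a silent potassium channel subunit, measured 8.19 and 8.03 in females 2 and 3 and 5.68 to 7.03 in the others, and Asic2, an acid-sensing channel, 7.94 and 7.82 against 5.47 to 6.22. For Abcb1b and Kcnf1, females 2 and 3 were the wild types nearest to the mutants, whose means were 5.28 and 8.36. Abcb1b was lower in mutants (-2.57 log2) and Kcnf1 higher (1.35 log2). The pattern still had no single direction relative to the mutants. For Chrna1, another gene at these ends, females 2 and 3 measured 5.48 and 5.49 and the others 6.39 to 7.65. Females 2 and 3 were thus the farthest from the mutants for Chrna1, whose mutant mean was 7.86. Of the 314 genes with an SD of at least 0.5 that all 6 wild-type arrays detected, female 5 was the farthest from the others for 79, female 3 for 71, female 2 for 60, female 6 for 54, female 1 for 39 and female 4 for 11.

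**Figure D4:**
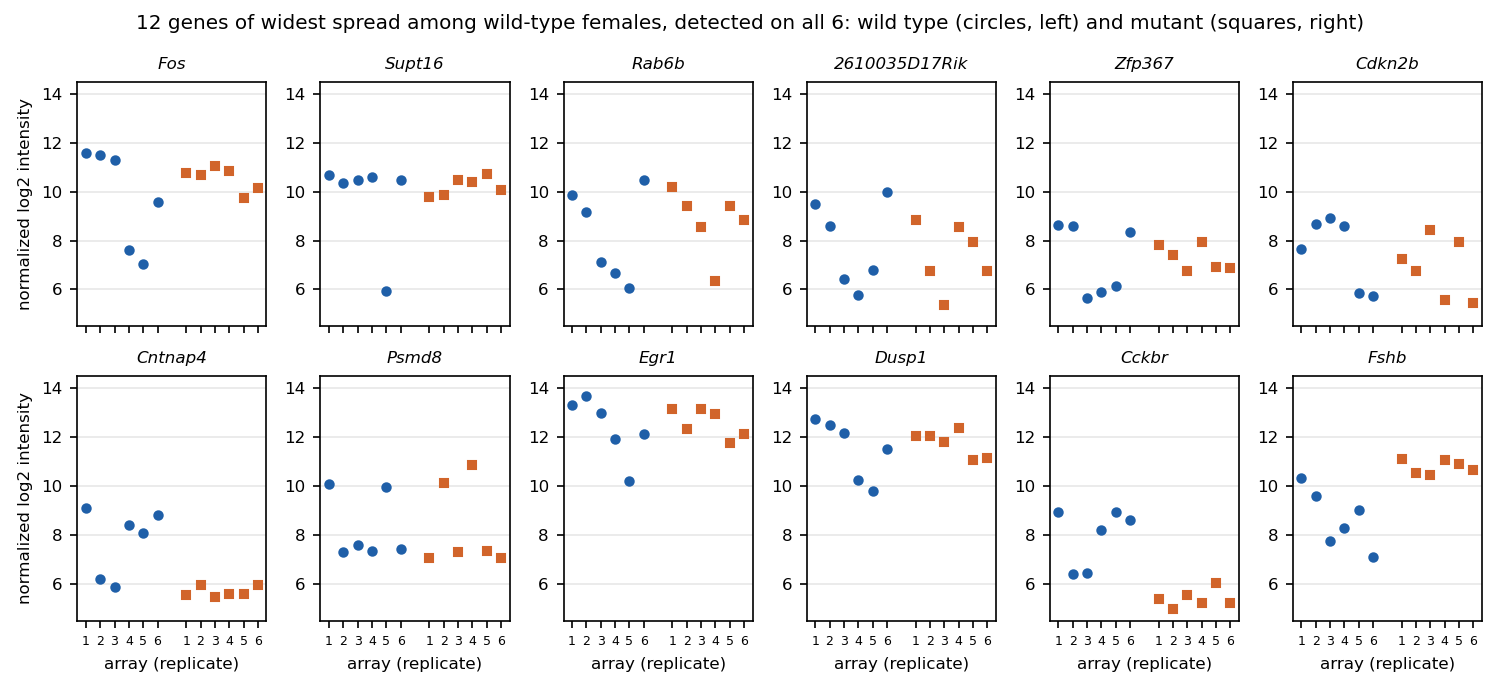
Normalized log2 intensity (y axis) of the 12 genes of widest scatter on each wild-type (circles, left) and mutant (squares, right) female array, numbered 1 to 6 within each group. Fos, Egr1 and Dusp1 are low on wild-type arrays 4 and 5, Cckbr and Cntnap4 on arrays 2 and 3, and Supt16 on array 5 alone.

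The change differed between the sexes for 1637 genes (13.6%), with a higher value in females for 872 (7.25%) and a lower one for 765 (6.36%). Of these, the estimates had the same sign and were larger in females for 388, the same sign and smaller in females for 549, and opposite signs for 700. A sign here needs no call within a sex, so a gene with almost no change in males is counted by its sign too. Among genes detected on all arrays of at least 1 female group, Reln and Crhbp gave the largest differences. Mutant minus wild type was -7.47 and -7.42 log2 in females and -0.20 and 0.28 in males, a difference of -7.27 ± 0.25 and -7.70 ± 0.55 (adjusted p = 9.9e-17 and 9.3e-10).

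Gal and Rxfp1, a relaxin receptor, likewise fell in females, by 4.24 and 3.48 log2, and differed by 0.01 and -0.09 in males. A gene already dim in wild-type males has little room to fall there, and the part of this was not tested. The summed intensity of the 10 neuropeptide genes tested, Gal and Vip among them, was 2129 to 3043 in wild-type males and 4498 to 13553 in wild-type females. Aebp1, a collagen-binding matrix protein (-2.73), Crtac1, a cartilage matrix protein (-2.33), and Vip (-2.34) were lower in female mutants, against -0.02, 0.68 and 0.30 in males. Among the wild-type females, Aebp1 measured 10.12, 11.81, 11.58, 9.85, 10.12 and 8.73, and Rxfp1 7.57, 8.92, 8.54, 8.48, 8.17 and 6.90. Female 2 was the highest and female 6 the lowest in both. Stbd1, a glycogen-binding protein, differed by -0.44 in females and 2.25 in males.

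In the other direction, Fshb differed most among such genes, at 2.11 in females and -0.43 in males (difference 2.54 ± 0.48, adjusted p = 9.0e-04). Ramp1, a partner of the calcitonin receptor-like receptor, rose in both sexes, by 3.45 log2 in females (5.43 to 7.06 against 9.28 to 9.90) and 1.19 in males. Dgkk also rose in both, by 5.02 and 3.01. Cabp2, a calcium-binding protein, Liph, a lipase, and Grem1, an antagonist of bone morphogenetic proteins, were higher in female mutants (1.24, 1.13 and 0.77) and lower in male mutants (-0.76, -0.87 and -1.14). Angptl4, a lipoprotein lipase inhibitor, was not called in females (0.43) and was lower in males (-1.43), with a call in females gained without wild-type female 3 (0.55), and Stac2, an adaptor of calcium channels, fell less in females (-0.84) than in males (-2.70).

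**Figure D5:**
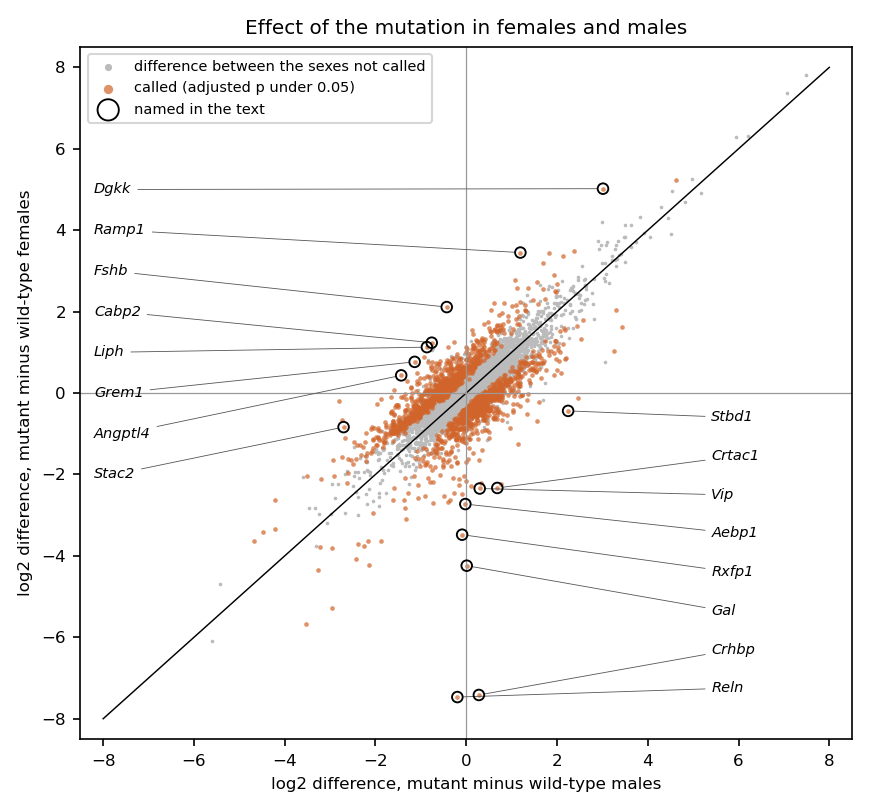
Log2 difference of 12027 genes, mutant minus wild type, in females (y axis) and males (x axis), with the line of equality, coloured where the difference between the sexes was called, and circles around 16 named genes. Reln and Crhbp lie near 0 in males and below -7 in females, and most of the largest rises lie along the line.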

How the data were processed

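Expression was measured in 24 pituitaries, 6 per group, on Illumina arrays, from RNA with an integrity number of 9.50 ± 0.13. The authors deposited, per the file headers, a mean bead intensity, a detection p-value and a bead number for each probe, made with GenomeStudio 2011.1 per the submitters' processing notes. A second deposited table of processed intensity, whose steps are not given in the sources used here, served only as an alternative. Another 24 columns were not used.

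Intensities were background-corrected and quantile-normalized over all 24 arrays with neqc (offset 16) in limma 3.58.1 (R 4.3.3). Probes detected at a p-value under 0.05 on at least 6 arrays were kept. Of 45281 probes, 34885 carried 1 gene symbol, 18 several and 10378 none, and 34807 matched RefSeq. The kept probe of highest mean stood for each of 12027 genes. A 4-group limma fit with Benjamini-Hochberg adjustment over these genes gave every adjusted p. An exact permutation test was added where group SDs differed over 3 times. The procedure was tested on simulated data.

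Members and lists were chosen with earlier results of these data known. The named genes are 8 fixed ones, the 25 largest rises and falls without overlap, the 12 of widest wild-type female scatter, up to 5 of smallest adjusted p per list with called members that went against it, and the 8 largest sex differences each way. Genes named outside this rule were chosen after their values were seen. Replicate numbers follow the order of the title numbers and did not enter the main fit (a block by runs of title numbers was added later as an alternative). P-values rest on the spread between arrays. The number of arrays limits the precision.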

Additional observations from a re-analysis of the deposited data

Results flagged for a closer look

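In 18 of 384 groups of 6 female arrays of the named genes, 1 array stood apart from the other 5 by Dixon's criterion, which chance meets in about 1 of 20 groups. Each gene is followed by the number of that array within its group and its normalized log2 intensity. Wild-type females stood apart at the high end for Tyrp1 (4, 5.03), Slc38a5 (1, 5.62), Cdh13 (4, 7.04), Dock3 (6, 13.04), Nr3c1 (2, 5.99), Col1a2 (5, 9.52), Klf9 (6, 11.98), Atf3 (2, 7.28), Angptl4 (3, 6.88). They stood apart at the low end for Supt16 (5, 5.92), Mcm7 (6, 7.18). Mutant females stood apart at the high end for Smco2 (6, 5.30), Birc5 (2, 7.99), E2f1 (2, 9.67), Angptl4 (6, 7.79). They did so at the low end for Scn11a (5, 4.89), Smad3 (6, 8.88), Cabp2 (4, 6.21).

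The limma interaction test called 59 of 192 named genes for a mutant effect that differed between the sexes, against 13.6% of all genes. Of the 192, 16 had been named for the largest such differences. Many others had been named for their female difference, which is a term of this test. The share among named genes therefore cannot be read against that of all genes. The values in brackets are the effect in females minus that in males, in log2 units, and a sign names no call within a sex. Among the genes below, Pgr was not detected on any wild-type male array and so had little room to fall in males. The difference was positive and larger in females for genes with higher values in mutants of both sexes: Ramp1 (2.26), Dgkk (2.01), Gata2 (1.38), Col1a1 (0.96), Kcnma1 (0.91), Chga (0.83), Nupr1 (0.61), Tshb (0.59), Stc1 (0.58), Dlk1 (0.44). With lower values in mutants of both sexes and the larger difference in females stood Reln (-7.27), Rxfp1 (-3.39), Aebp1 (-2.71), Ecel1 (-2.32), Greb1 (-2.14), Kctd4 (-2.09), Cckbr (-2.05), C2cd4c (-1.77), Scn11a (-1.77), Neurod4 (-1.65), Cdh7 (-1.49), Slc5a8 (-1.49), Angpt1 (-1.32), Gadd45g (-1.14), Smco2 (-1.08), Klk1b21 (-0.84), Mbp (-0.74), Pcsk6 (-0.56). The difference between mutants and wild types had the same sign and was smaller in females for Stac2 (1.87), Agtr1a (1.59), Sstr5 (1.57), 6030468B19Rik (1.05), Neurog1 (1.04), Hr (0.91), H2-Aa (-0.89), Ush1c (0.88), Aif1 (-0.70), Lhb (0.65), Cspg4 (0.49), Tceal3 (-0.42). It had opposite signs in the 2 sexes for Crhbp (-7.70), Gal (-4.25), Crtac1 (-3.02), Stbd1 (-2.68), Vip (-2.64), Fshb (2.54), Cabp2 (1.997), Liph (1.99), Grem1 (1.90), Angptl4 (1.87), Cacna1g (-1.65), Pgr (-1.41), Col1a2 (-1.32), Cdh5 (0.62), Tgfbr2 (0.62), Tgfbr3 (0.60), Jun (-0.48), Sqle (0.48), Ccnd3 (0.46).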

How the results depend on the processing

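The number of genes called in females was 5334 to 6100 over all alternatives but the one limited to genes detected on all 12 female arrays, which called 4599 of 9732. The 6100 came from 19057 genes with no filter on dim probes, a share of 32.0% against 48.3%. Leaving out single arrays gave 5374 to 5714. The number of called sex differences was 1375 to 1808, and 1331 to 1782 without single arrays. The number of genes with a wild-type female SD of at least 0.5 was 156 under the authors' table, 237 with an offset of 50 and 281 among genes detected on all 12 female arrays, and 390 to 518 without single arrays; the cause was not tested. Of 206 named or listed genes called, 176 kept their call and direction under every alternative run and 30 did not. Signs turned for Dlk1 under 75th percentile scaling (-0.36) and with only the female arrays normalized (-0.11). They also turned with the mean over a gene's probes for Cacna1d (-0.018), Lss (-0.49), Ndufb8 (-0.23), Syt4 (-0.22) and Tceal6 (-0.30). Scaling to the 75th percentile gave 2403 higher and 3513 lower genes. The labels pair no samples, but the title numbers fall into 6 runs of 4, each with 1 array of every group, and the raw background differed between runs (83.4 to 99.2 in runs 1 to 3, 96.8 to 111.5 in runs 4 to 6). A replicate block by these runs, chosen after seeing the data, called 5888 genes and 1761 sex differences. Among named or listed genes Pmvk and Syt4 lost their calls and Gfap, Hcn2, Pitx1 and Tceal8 gained one. Deviations of the 2 female arrays of a run correlated at 0.01 to 0.20, over 0.1 in 3 of 6 runs. The median correlation was 0.10 within a run and -0.01 across runs. Genes near the background on one side have only a lower bound to their fold.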
